A study of Mus musculus with 2 samples.

Results

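Regulatory T cells (Tregs) make transforming growth factor beta in a latent form, hold it on their surface and also receive its signal, and 9 genes of that route are described here. They are Tgfb1, Lrrc32 and Nrp1 for the ligand and its handling at the cell surface, Tgfbr1 and Tgfbr2 for the receptors, Smad3 for the signal inside the cell, and Smad7, Ski and Skil for its inhibitors. The genes were chosen by name, among 28692 genes in the count matrices, and a gene counted as measured with at least 30 UMIs over both libraries. A UMI, or unique molecular identifier, is the tag by which each captured transcript is counted once. All 9 met that minimum, and over the cells kept for the results 9224 of all genes did.

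CD4 Tregs were sorted from the spleens of male mice of the strain B6 Pparg-Tdt.Foxp3-Gfp, 8 weeks of age, and transcript 3′ ends were sequenced from single cells in droplets. The PPARg-low library held Tregs labelled as low in PPARg, a nuclear receptor known for its control of lipid metabolism genes, and the PPARg-negative library held Tregs labelled as negative for it. Both groups carry the same Pparg and Foxp3 reporters, each is 1 library, and each came from a pool of 2 or 3 spleens. No difference between the libraries therefore has a replicate check, no test between them was possible, and the 95% intervals given throughout reflect counting error alone.

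As background, the Tgfb1 protein is cut and secreted as a latent complex whose propeptide keeps the growth factor inactive. On activated Tregs that complex is tied to the surface by GARP, the product of Lrrc32, and integrins that contain the alpha v chain release the growth factor. The free ligand binds Tgfbr2, which recruits and phosphorylates Tgfbr1, and that receptor phosphorylates Smad2 and Smad3, which enter the nucleus with Smad4; Smad7 blocks the receptor, while Ski and Skil repress SMAD-driven transcription. In T cells the pathway is known for inducing Foxp3, for the integrin chain Itgae and for limiting effector responses.

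The members Tgfb1, Nrp1 and Smad3 are shown with the DNA just before their start, because Nrp1 and Smad3 were the members with higher levels in PPARg-low Tregs and Tgfb1 is the ligand. Each sequence is the 250 bases before the RefSeq start (RefSeq, GRCm38.p6), 5′ to 3′ on the gene's strand, with every GC box, GGGCGG or its reverse complement CCGCCC, in capitals. The windows are chr7:25686752-25687001 on the plus strand for Tgfb1, chr8:128358823-128359072 on the plus strand for Nrp1 and chr9:63757995-63758244 on the minus strand for Smad3. The Tgfb1 and Smad3 windows touch no annotated transcript, and the Nrp1 window lies within a noncoding Nrp1 transcript that starts upstream of it in GENCODE M21.
Tgfb1: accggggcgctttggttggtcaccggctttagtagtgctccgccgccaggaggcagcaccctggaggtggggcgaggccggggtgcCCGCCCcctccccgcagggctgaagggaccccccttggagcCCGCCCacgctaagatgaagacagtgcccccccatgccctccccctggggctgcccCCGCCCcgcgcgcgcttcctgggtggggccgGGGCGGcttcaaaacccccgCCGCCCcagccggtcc
Nrp1: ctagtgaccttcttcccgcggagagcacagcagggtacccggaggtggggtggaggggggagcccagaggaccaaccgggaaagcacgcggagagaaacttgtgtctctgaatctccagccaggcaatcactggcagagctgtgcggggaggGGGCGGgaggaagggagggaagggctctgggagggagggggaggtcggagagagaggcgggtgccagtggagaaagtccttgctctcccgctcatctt
Smad3: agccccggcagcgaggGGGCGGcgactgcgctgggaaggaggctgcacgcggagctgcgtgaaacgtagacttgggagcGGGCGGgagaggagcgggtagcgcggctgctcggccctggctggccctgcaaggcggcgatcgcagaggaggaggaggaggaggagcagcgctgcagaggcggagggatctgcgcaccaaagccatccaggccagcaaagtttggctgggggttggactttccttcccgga
The GC box was found 5 times before Tgfb1, 1 time before Nrp1 and 2 times before Smad3, and 32.7% of 32851 promoter windows of the same length held it at least once. None of the 3 windows held the SMAD palindrome GTCTAGAC (0.167% of all windows), the shorter SMAD box CAGAC or GTCTG (42.2%), the AP-1 motif TGANTCA (6.75%) or 2 copies of AGGTCA in a row with 1 base between them, the direct repeat of PPAR and its partner (0.0335%), each searched on both strands. The SMAD palindrome and the SMAD box share the letters GTCT and AGAC, but a match of the palindrome is not by itself a match of the box. The RefSeq table held 6 of the 9 members, Tgfbr1 with 2 starts, and the motifs in the other windows were 2 GC boxes at the first start of Tgfbr1, 1 SMAD box at its second start, 1 SMAD box before Tgfbr2 and 5 GC boxes before Ski. A match describes letters in a window and shows neither binding nor use of a site.

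The kept cells were 1619 with 2901710 UMIs in the PPARg-low library and 2633 with 5897260 UMIs in the PPARg-negative library, with medians of 1517 and 2171 UMIs per cell. All 7 Treg markers were detected in both libraries, with at least 1 UMI of them in 1614 PPARg-low and 2564 PPARg-negative cells. The libraries shared 5 barcode sequences. Cells with under 20% of their UMIs from ribosomal protein genes, called ribosome-poor, were 58.7% of PPARg-low and 23.3% of PPARg-negative cells, with median depths of 978 and 853 UMIs; the other, ribosome-rich cells had 2294 and 2455 UMIs. Since that share differed between the libraries, the main results are also given within both kinds of cells.

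Over all kept cells, Nrp1 and Smad3 were higher in PPARg-low Tregs, Lrrc32 was lower, and the ligand, both receptors and the 3 inhibitors differed by less than 1.5 times. A gene was called when its levels differed by at least 1.5 times, either way, and the interval of its ratio excluded 1. By that rule 2 of 9 members were higher, beside 24.2% of all measured genes, and 1 was lower, beside 4.47%. The median log2 ratio of the 9 members was 0.27, against 0.29 for all measured genes, so as a set the members lay at the level of the whole profile. The median gene already had a ratio of 1.22 in CPM, counts per 1000000 UMIs of the library. Relative to that median the same 3 members were called, beside 11.9% of genes higher and 8.78% lower, and Tgfbr2, Smad7, Ski and Skil joined Lrrc32 under 1.

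**Figure D1:**
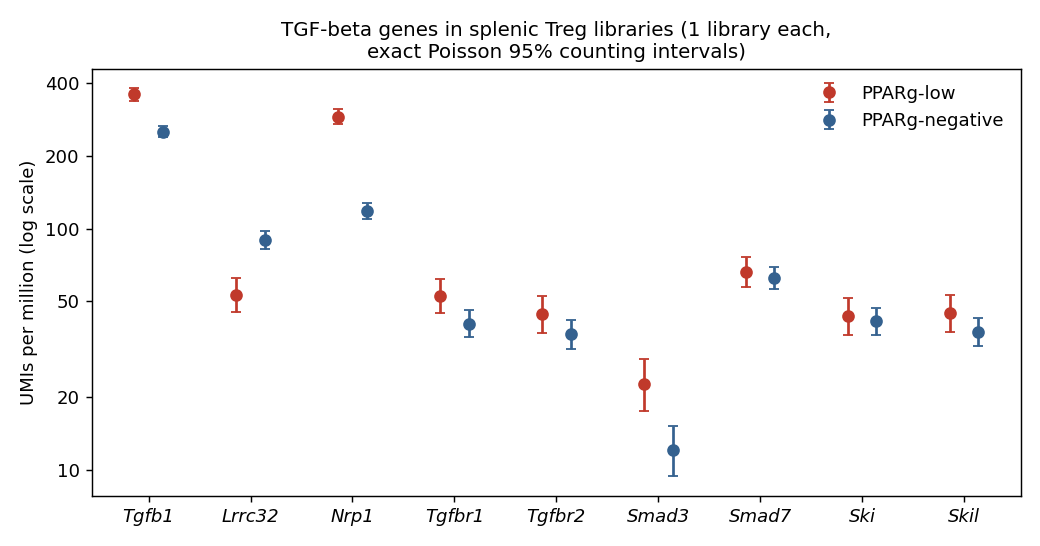
Level of the 9 members in CPM (log axis), with the PPARg-low library to the left of the PPARg-negative library for each gene and bars for exact Poisson 95% intervals (counting error only). Nrp1 stands at 292 CPM in PPARg-low and 118 CPM in PPARg-negative Tregs, Lrrc32 at 53.1 and 89.9 CPM, and the bars of these genes do not meet.

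Tgfb1 (ENSMUSG00000002603, mm10 chromosome 7, 25687002 to 25705077, plus strand) encodes the ligand and had the most UMIs of the 9 genes in both libraries. In PPARg-low Tregs 1046 UMIs were counted, or 360 CPM (339 to 383), and in PPARg-negative Tregs 1489 UMIs, or 252 CPM (240 to 266). The ratio, here and below PPARg-low over PPARg-negative, came to 1.43 (1.32 to 1.55), under the size asked of a call, although the 2 intervals did not overlap. Tgfb1 thus lay above the median gene in this comparison, and by less within each kind of cell: its ratio was 1.31 (1.19 to 1.45) in ribosome-rich and 1.13 (0.970 to 1.32) in ribosome-poor cells.

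Lrrc32 (ENSMUSG00000090958, chromosome 7, 98489283 to 98502181, plus strand), which encodes the docking receptor GARP, was the member with a lower level in PPARg-low Tregs. It had 154 UMIs, or 53.1 CPM (45.0 to 62.1), in the PPARg-low library and 530 UMIs, or 89.9 CPM (82.4 to 97.9), in the PPARg-negative library. The ratio was 0.591 (0.490 to 0.708), a 1.69-fold lower level in PPARg-low Tregs (1.41 to 2.04). The difference was there in both kinds of cells, with a ratio of 0.566 (0.444 to 0.714) in ribosome-rich and 0.522 (0.370 to 0.736) in ribosome-poor cells. Without the cells that had a UMI of another cell type's marker, described last, the ratio was 0.724 (0.571 to 0.911), which is not a call. Over all kept cells Lrrc32 thus lay under 1, while Tgfb1 lay above it, as did the median gene at 1.22, and was not called.

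Nrp1 (ENSMUSG00000025810, chromosome 8, 128358604 to 128503363, plus strand) encodes neuropilin 1, a surface co-receptor for semaphorins and vascular endothelial growth factors that is also reported to bind TGF-beta and is often used as a marker of thymus-derived Tregs. It had 846 UMIs, or 292 CPM (272 to 312), in the PPARg-low library and 696 UMIs, or 118 CPM (109 to 127), in the PPARg-negative library. The ratio was 2.47 (2.23 to 2.73), the largest of the 9. Within ribosome-rich cells it was 2.67 (2.34 to 3.03), from 257 CPM in PPARg-low and 96.4 CPM in PPARg-negative cells. Within ribosome-poor cells it was 1.18 (0.992 to 1.41), from 344 CPM in PPARg-low and 291 CPM in PPARg-negative cells, and Nrp1 was not called there. The PPARg-negative ribosome-poor cells thus had a level of Nrp1 near that of PPARg-low cells, and the ratio of ribosome-poor over ribosome-rich cells was 1.34 (1.17 to 1.54) in the PPARg-low and 3.02 (2.54 to 3.58) in the PPARg-negative library. For the median gene that ratio was 1.24 in the PPARg-low and 1.42 in the PPARg-negative library.

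The receptors Tgfbr1 and Tgfbr2, the kinases that bind the ligand together, did not differ by the size asked. Tgfbr1 had 153 UMIs, or 52.7 CPM, in PPARg-low and 238 UMIs, or 40.4 CPM, in PPARg-negative Tregs, a ratio of 1.31 (1.06 to 1.61). Tgfbr2 had 128 UMIs, or 44.1 CPM, in PPARg-low and 215 UMIs, or 36.5 CPM, in PPARg-negative Tregs, a ratio of 1.21 (0.964 to 1.51). Both intervals included the 1.22 of the median gene. In ribosome-poor cells the Tgfbr2 ratio was 0.672 (0.462 to 0.980), on the other side of 1 from its 1.18 in ribosome-rich cells, while Tgfbr1 lay at 0.974 in the ribosome-poor cells and at 1.24 in the others. The ratio of ribosome-poor over ribosome-rich cells, which was above 1 for all 9 members in both libraries, was 1.56 for Tgfbr2 in the PPARg-low and 2.75 (1.98 to 3.75) in the PPARg-negative library.

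Smad3 (ENSMUSG00000032402, chromosome 9, 63646767 to 63757994, minus strand), the receptor-activated transcription factor of the pathway, had few UMIs but a higher level in PPARg-low Tregs. It had 66 UMIs, or 22.7 CPM (17.6 to 28.9), in the PPARg-low and 71 UMIs, or 12.0 CPM (9.40 to 15.2), in the PPARg-negative library. The ratio was 1.89 (1.33 to 2.68), and 1.76 (1.12 to 2.73) in ribosome-rich cells. Among ribosome-poor cells, where 32 PPARg-low and 13 PPARg-negative UMIs were counted, it was 1.40 (0.714 to 2.90), so a difference was not detectable there at this depth.

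The 3 inhibitors were close to 1 in ratio. Smad7, which is itself induced by the pathway and blocks the receptor, had 192 UMIs, or 66.2 CPM, in PPARg-low and 368 UMIs, or 62.4 CPM, in PPARg-negative Tregs, a ratio of 1.06 (0.886 to 1.27). Ski, a SMAD co-repressor, had 126 UMIs, or 43.4 CPM, in PPARg-low and 243 UMIs, or 41.2 CPM, in PPARg-negative Tregs, a ratio of 1.05 (0.843 to 1.31). Its relative Skil had 130 UMIs, or 44.8 CPM, in PPARg-low and 220 UMIs, or 37.3 CPM, in PPARg-negative Tregs, a ratio of 1.20 (0.959 to 1.5). The upper bounds leave room for at most a 1.5-fold higher level of any inhibitor in the PPARg-low library, as far as counting error goes.

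**Figure D2:**
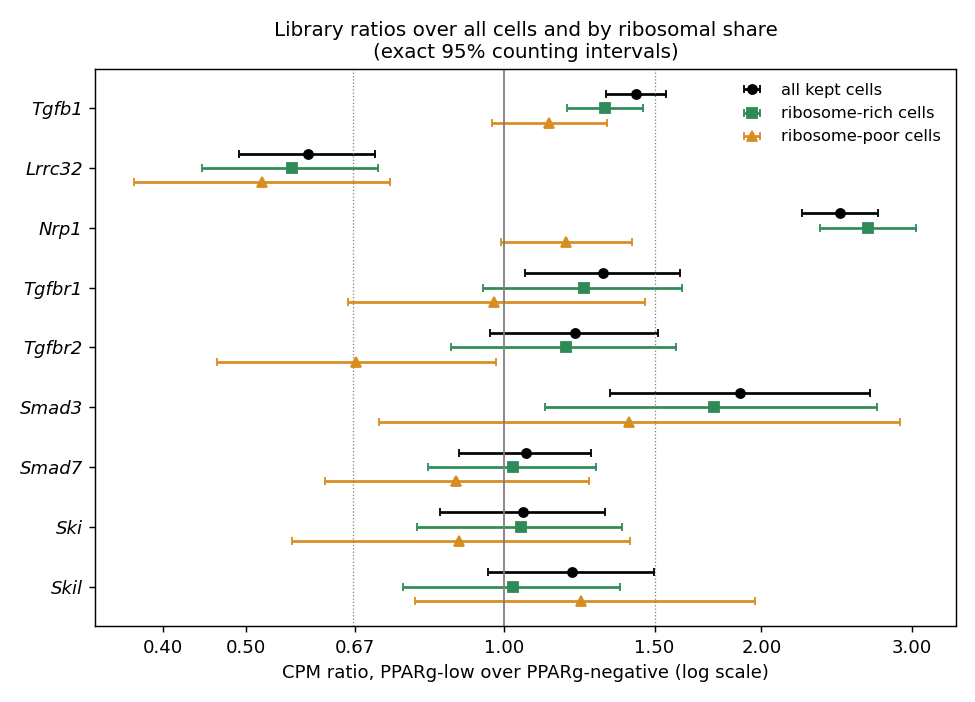
Ratio of PPARg-low over PPARg-negative (log axis) for each member, over all kept cells and split into ribosome-rich and ribosome-poor ones, with exact conditional binomial 95% intervals (counting error only). Lrrc32 stays under 1 in all 3, at 0.591, 0.566 and 0.522, while Nrp1 lies at 2.47 and 2.67 over all and in ribosome-rich cells and at 1.18 in ribosome-poor cells.

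Within ribosome-rich cells the same 3 members were called as over all cells, Nrp1 and Smad3 higher (17.2% of measured genes were) and Lrrc32 lower (3.92%). Within ribosome-poor cells 0 members were higher (6.82% of measured genes were) and Lrrc32 alone was lower (5.4%). Lrrc32 was therefore the single member called in both kinds of cells, although it was not called once cells with a marker UMI of another cell type were left out.

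Shares of cells with a UMI were compared after thinning each cell to 750 UMIs, which kept 1381 PPARg-low and 2394 PPARg-negative cells and dropped 238 and 239 with fewer UMIs; the intervals are exact binomial. Nrp1 was found in 19.6% (17.5 to 21.7%) of the PPARg-low and in 7.81% (6.77 to 8.96%) of the PPARg-negative cells, against 34.3 and 19.4% without thinning. The share for Lrrc32 was 3.84% (2.89 to 4.99%) in PPARg-low Tregs and 6.52% (5.56 to 7.58%) in PPARg-negative Tregs, or 7.54 and 15.1% without thinning. These shares run the same way as the levels, and neither pair of intervals overlaps. Tgfb1 was found in 23.0% of PPARg-low and 19.0% of PPARg-negative cells, and Smad3 in 1.88 and 1.09%. The Smad3 shares rested on 26 cells of each library and moved with the thinning, to 1.42% of PPARg-low and 0.266% of PPARg-negative cells at 500 UMIs.

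The other members were each found in 2.59 to 4.89% of the thinned cells of either library. For Smad7 the shares, 3.84% of PPARg-low and 4.89% of PPARg-negative cells, ran against its levels, so no order is read from them. As a measure of free RNA, Cd79a, which belongs to B cells, had a UMI in 0.217% of PPARg-low and 0.0835% of PPARg-negative cells, and Lyz2, which belongs to myeloid cells, in 0.145 and 0.0418%, below every member. Other markers of those cells were more frequent: Cd79b had 92 PPARg-low and 132 PPARg-negative UMIs and Cst3 777 PPARg-low and 857 PPARg-negative UMIs, above the 66 and 71 UMIs of Smad3, so for Smad3 the free RNA level depends on the marker. Cst3 also had more UMIs than Lrrc32, Tgfbr1, Tgfbr2, Smad7, Ski and Skil in either library, so the same holds for them. It holds for Nrp1 in the PPARg-negative library, where Nrp1 had 696 UMIs, but not in the PPARg-low library, where Nrp1 had 846. Foxp3 itself, on which all these cells depend, was found in 2.46 and 2.17% of thinned cells, so a cell without a UMI of a member cannot be read as a cell without the transcript. No UMI of any member was found in 48.1% of PPARg-low and 59.6% of PPARg-negative cells, and UMIs of 2 or more members were found in 12.6 and 8.77%. The mean number of member UMIs per ribosome-poor cell was 0.854 in the PPARg-low library and 0.860 in the PPARg-negative library, and per ribosome-rich cell it was 0.650 in the PPARg-low and 0.486 in the PPARg-negative library.

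For Nrp1 the split by ribosomal share showed in the shares too. It was found in 18.2% of PPARg-low and 6.01% of PPARg-negative ribosome-rich cells, whereas among ribosome-poor cells it was found in 20.8% (17.9 to 24%) of the PPARg-low and in 16.4% (13.0 to 20.4%) of the PPARg-negative ones. Among ribosome-rich cells Lrrc32 had a UMI in 3.64% (2.34 to 5.36%) of those in the PPARg-low library and in 6.46% (5.42 to 7.64%) of those in the PPARg-negative library, and in 4.02% (2.71 to 5.73%) and 6.76% (4.54 to 9.63%) of the ribosome-poor cells of the PPARg-low and the PPARg-negative library. The PPARg-negative ribosome-rich cells were thus the ones low in Nrp1. For Lrrc32 the PPARg-low share was the smaller one in either kind of cell, also when cells were thinned to 500 or to 1000 UMIs, but which of its intervals met changed with that depth.

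The cells were clustered without the 9 members and without the other pathway genes, and levels were read in the 15 pairs of cluster and library with 50 or more cells. Cluster names were given from fixed markers, and clusters that had under 3 of them among their 10 leading genes are called by number and leading genes. Tgfb1 was highest in PPARg-low cells of cluster 8, effector Treg-like cells led by Il10, Il1r2, Ccl4, Ccr8 and Lag3, at 603 CPM (531 to 683). PPARg-negative cells of cluster 9, led by Gadd45g, had 429 CPM, and cluster 4, led by Ccr2, Gzmb and Ccr3, had 372 CPM in PPARg-low and 415 CPM in PPARg-negative cells. The resting Treg-like cluster 2, led by Igfbp4, Dapl1 and Ly6c1, had 208 CPM in PPARg-negative cells. The lowest Tgfb1 level was that of PPARg-low cells of cluster 6, at 189 CPM from 12 UMIs.

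Nrp1 and Lrrc32 followed other orders. Nrp1 was highest in PPARg-low cells of cluster 6, led by Cxcr3, P4ha1 and Ssbp2, at 756 CPM (557 to 1002) from 48 UMIs, and then in PPARg-low cells of cluster 7, led by Tbc1d4 and Cxcr5, at 339 CPM, and of cluster 4, at 336 CPM. It was lowest in PPARg-negative cells of cluster 2, at 72.3 CPM, of cluster 1, led by Ly6c1 and Chchd10, at 75.9 CPM, of cluster 9, at 81.5 CPM, and of cluster 3, led by Socs2, Lta and Gpr83, at 109 CPM, below the 184 CPM of cluster 8 in PPARg-low cells. Lrrc32 was lowest in cluster 4, at 22.0 CPM in PPARg-low and 29.6 CPM in PPARg-negative cells, and high in PPARg-negative cells of cluster 3, at 140 CPM (121 to 160) from 208 UMIs, and in cluster 6, at 189 CPM in PPARg-low and 166 CPM in PPARg-negative cells, the first of these from 12 UMIs only. Cluster 6 had a median depth of 742 UMIs per cell, the lowest of the clusters used. For Tgfb1, Lrrc32 and Smad3 the intervals of all 14 neighbours in the order of levels overlapped, and for Nrp1 those of 1 neighbour pair did not.

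**Figure D3:**
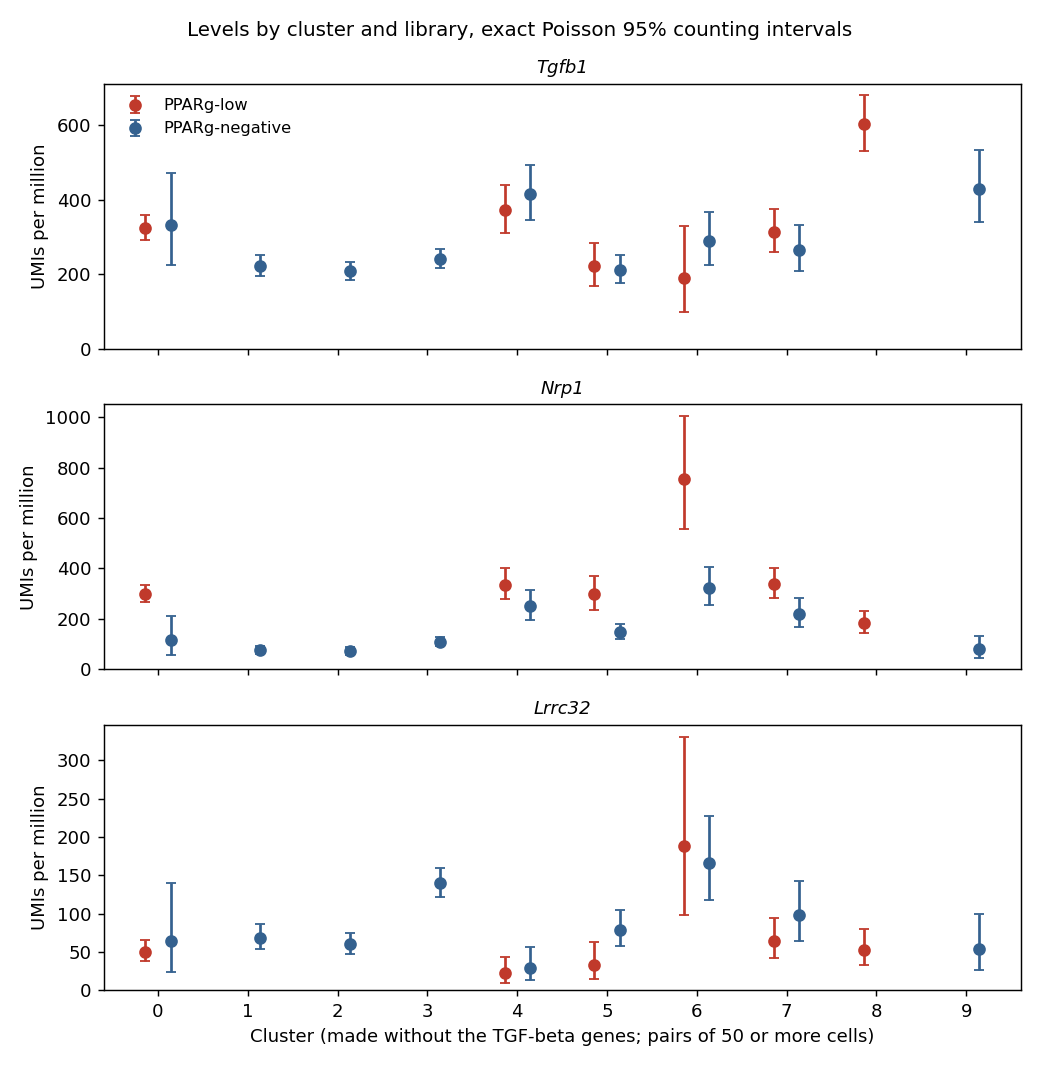
Level of Tgfb1, Nrp1 and Lrrc32 in CPM in each pair of cluster and library with 50 or more cells, with exact Poisson 95% intervals (counting error only) and the PPARg-low library drawn left of the PPARg-negative library. Nrp1 is higher in the PPARg-low cells of each cluster that both libraries filled, and Tgfb1 is highest in PPARg-low cells of cluster 8 at 603 CPM.

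Within the 5 clusters that had 50 or more cells of both libraries, Nrp1 was above 1 in ratio in 5 of 5 and called higher in 4. The ratios were 2.54 (1.40 to 5.13) in cluster 0, effector Treg-like cells led by Trf, Pdcd1 and Epcam, 1.34 (1.0 to 1.81) in cluster 4, 2.02 (1.48 to 2.75) in cluster 5, led by Plac8 and Prg4, 2.34 (1.59 to 3.40) in cluster 6 and 1.53 (1.12 to 2.11) in cluster 7. Lrrc32 was under 1 in 4 of the 5 clusters and called lower in cluster 5 alone, at 0.422 (0.182 to 0.867), and its other ratios rested on 6 to 57 UMIs a library. Tgfb1 had a median ratio of 0.974 over the 5 clusters and was called in 0 of them. Smad3 was above 1 in 1 of the 5 clusters, had a median ratio of 0.925 and was called in 0, with at most 31 UMIs a cluster and library. Its ratio in cluster 0 came from the floor of 3 counts, since 0 PPARg-negative UMIs were found there.

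Klrg1, a receptor of terminally differentiated T cells, was used to divide the cells by transcripts. A Klrg1 UMI was found in 899 of the PPARg-low cells, with a median depth of 1564 UMIs, and in 141 of the PPARg-negative cells, with a median of 1691 UMIs. Cells without it numbered 720 in the PPARg-low and 2492 in the PPARg-negative library. In cells without it the Nrp1 ratio was 2.83 (2.50 to 3.21), and in cells with it 1.63 (1.20 to 2.25), so Nrp1 was higher in the PPARg-low library on both sides of the division. The Lrrc32 ratio was 0.720 (0.563 to 0.911) without and 0.701 (0.414 to 1.25) with Klrg1, nearer to 1 than over all cells and not called in either. The Tgfb1 ratio was 1.22 on each side.

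Inside the PPARg-low library the Tgfb1 level was 404 CPM in cells with Klrg1 and 302 CPM in cells without it, a ratio of 1.34 (1.18 to 1.52) that is under the size of a call. The same cells were lower in Lrrc32, with 43.5 CPM against 65.8 CPM in cells without Klrg1 (ratio 0.662, 0.475 to 0.919), and had 264 CPM of Nrp1 against 328 CPM (ratio 0.805, 0.702 to 0.924). In the PPARg-negative library Tgfb1 was at 331 CPM in cells with Klrg1 and 248 CPM in cells without it (ratio 1.33), and Nrp1 at 162 CPM with and 116 CPM without (ratio 1.40, 1.02 to 1.88). Neither ratio kept its direction in both kinds of cells of that library. For Tgfb1 it was 1.16 (0.864 to 1.55) in ribosome-poor cells but 0.922 (0.620 to 1.32) in ribosome-rich ones, and for Nrp1 it was 0.691 (0.460 to 1.01) in ribosome-poor cells but 1.06 in ribosome-rich ones.

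By the same measure, cells with a UMI of Itgb8, the integrin chain that pairs with Itgav to release latent TGF-beta, numbered 180 in the PPARg-low library and 73 in the PPARg-negative library. Lrrc32 was at 54.1 CPM in PPARg-low cells with Itgb8 and 52.9 CPM in those without (ratio 1.02). In PPARg-negative cells it was at 143 CPM with Itgb8 and 88.4 CPM without, a ratio of 1.62 (1.01 to 2.45). All 23 Lrrc32 UMIs of those PPARg-negative cells lay in ribosome-rich ones, at a ratio of 2.13 (1.34 to 3.24), and the 28 ribosome-poor ones held 0. Whether the libraries differ in this respect was not tested.

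Across the 15 pairs of cluster and library, each member's level was set beside those of all genes with 300 or more UMIs, as Pearson's r of log2(CPM + 10). The pairs share 2 libraries and differ in depth, so r is a description. Nrp1 was most like Maz (r = 0.933), Itgb1 (0.911) and Uhrf2 (0.909), and Tgfb1 was most like Smim7 (0.899), Nfkb2 (0.883) and Gadd45b (0.858). Lrrc32 was most like Inpp4b (0.831), Cd96 (0.827) and Bcl2 (0.818). Among the members themselves the highest r was 0.63, between Lrrc32 and Smad7, and that between Tgfb1 and Lrrc32 was -0.47.

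For the receptors the leading genes were Parvg (0.874), Stard3nl (0.855) and Rrnad1 (0.850) for Tgfbr1, and Clip1 (0.880), Nsd1 (0.862) and Celf1 (0.861) for Tgfbr2. For Smad3 they were Tsg101 (0.858), Raver1 (0.813) and Cant1 (0.808). For the inhibitors they were Rabac1 (0.837), Zfp36l2 (0.837) and Trappc5 (0.814) for Smad7, Trpc4ap (0.836), Ahcyl2 (0.759) and Mrps35 (0.729) for Ski, and Clpp (0.783), Rnf7 (0.770) and Nrip1 (0.758) for Skil. No member was among the 3 genes most like another member, and Smad3 could not be, as it had under 300 UMIs. The Smad3 levels in the pairs rested on 0 to 31 UMIs.

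Beyond the 9 members, 61 other genes of the pathway were listed, 60 had a row in the matrices and 34 were measured. Of these 10 were higher in PPARg-low Tregs, 1 was lower and 23 were not called, with a median log2 ratio of 0.34 beside 0.29 for all genes. The share called higher, 10 of 34, stands beside 24.2% of all measured genes. The integrin chains that release the latent ligand had the largest ratios: Itgb8 had 212 UMIs in the PPARg-low and 77 UMIs in the PPARg-negative library, a ratio of 5.60 (4.29 to 7.36), and its partner Itgav had 180 PPARg-low and 88 PPARg-negative UMIs, a ratio of 4.16. Nrros, which docks latent TGF-beta on myeloid cells, had 257 PPARg-low and 212 PPARg-negative UMIs, a ratio of 2.46. The protease Furin, which cuts the proprotein, had 90 PPARg-low and 112 PPARg-negative UMIs, a ratio of 1.63. Bmpr2 and Junb, described below, lay between Itgav and Nrros. The other measured genes of ligand activation, the protease Pcsk7 at 1.34 and the integrin chain Itgb3 at 1.30, were not called. All 6 measured genes of ligand activation thus lay above 1, as did the median gene at 1.22, while Lrrc32 lay under it.

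In thinned cells Itgb8 was found in 6.08% of PPARg-low and 1.55% of PPARg-negative cells. Its ratio was 5.17 among ribosome-rich and 2.48 among ribosome-poor cells, and that of Itgav was 3.31 and 2.20, so both were called in either kind of cell. Within clusters 0, 4, 5, 6 and 7, Itgb8 was at 86.5, 52.3, 22.2, 63.0 and 79.7 CPM in PPARg-low cells. In PPARg-negative cells it was at 75.1, 29.6, 6.43, 21.3 and 61.7 CPM. In the same order Itgav was at 75.9, 38.6, 11.1, 110 and 30.9 CPM in PPARg-low cells. Its PPARg-negative levels were 42.9, 39.5, 14.5, 51.1 and 21.8 CPM. Itgav was thus not higher in PPARg-low cells of clusters 4 and 5. The Itgav levels of cluster 5 rested on 3 PPARg-low and 9 PPARg-negative UMIs. Nrros was at 1.69 among ribosome-rich and 2.14 among ribosome-poor cells, and Furin was called in neither, at 1.31 and 1.18.

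Of the pathway's other receptors 1 was measured, Bmpr2, a receptor for bone morphogenetic proteins, with 46 UMIs in the PPARg-low and 30 UMIs in the PPARg-negative library and a ratio of 3.12. Without the cells that had a UMI of another cell type's marker its log2 ratio was 0.96, against 1.64 over all kept cells, and it was not called. Each other listed receptor had under 30 UMIs. Among them Acvr1b had 3 PPARg-low and 24 PPARg-negative UMIs, or 1.03 and 4.07 CPM. Acvrl1 had 5 PPARg-low and 20 PPARg-negative UMIs, or 1.72 and 3.39 CPM, and Bmpr1a 6 and 8 UMIs, or 2.07 and 1.36 CPM. None of the 4 measured SMAD genes was called, with Smad2 at 1.07, Smad4, the shared partner, at 0.879 and Smad5 at 1.19. Of 16 measured regulators 3 were higher, beside 24.2% of all measured genes: Ldlrad4, an inhibitor of SMAD phosphorylation, at 1.80, Tgif1, a SMAD co-repressor, at 1.61, and Ppm1a, a phosphatase reported to act on SMADs, at 1.57. Pmepa1, another inhibitor of the pathway, was at 1.02, Fkbp1a, which binds Tgfbr1, at 1.18, and the co-repressor Ncor1 at 1.32. Within ribosome-rich cells Bmpr2 (2.35), Ldlrad4 (2.27), Ppm1a (1.62) and Tgif1 (1.53) were called higher. Within ribosome-poor cells Tgif1 was called, at 2.14, while Bmpr2 was at 2.27 (0.970 to 6.17) from 28 PPARg-low and 7 PPARg-negative UMIs and missed a call by its interval. Smad1 was at 0.743, so the 4 SMAD genes lay on either side of 1. Relative to the median of all genes 0 of the 16 regulators were called higher and 1 lower, and 3 of the 6 measured genes of ligand activation were called higher and 0 lower, beside 11.9% of all genes higher and 8.78% lower.

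**Figure D4:**
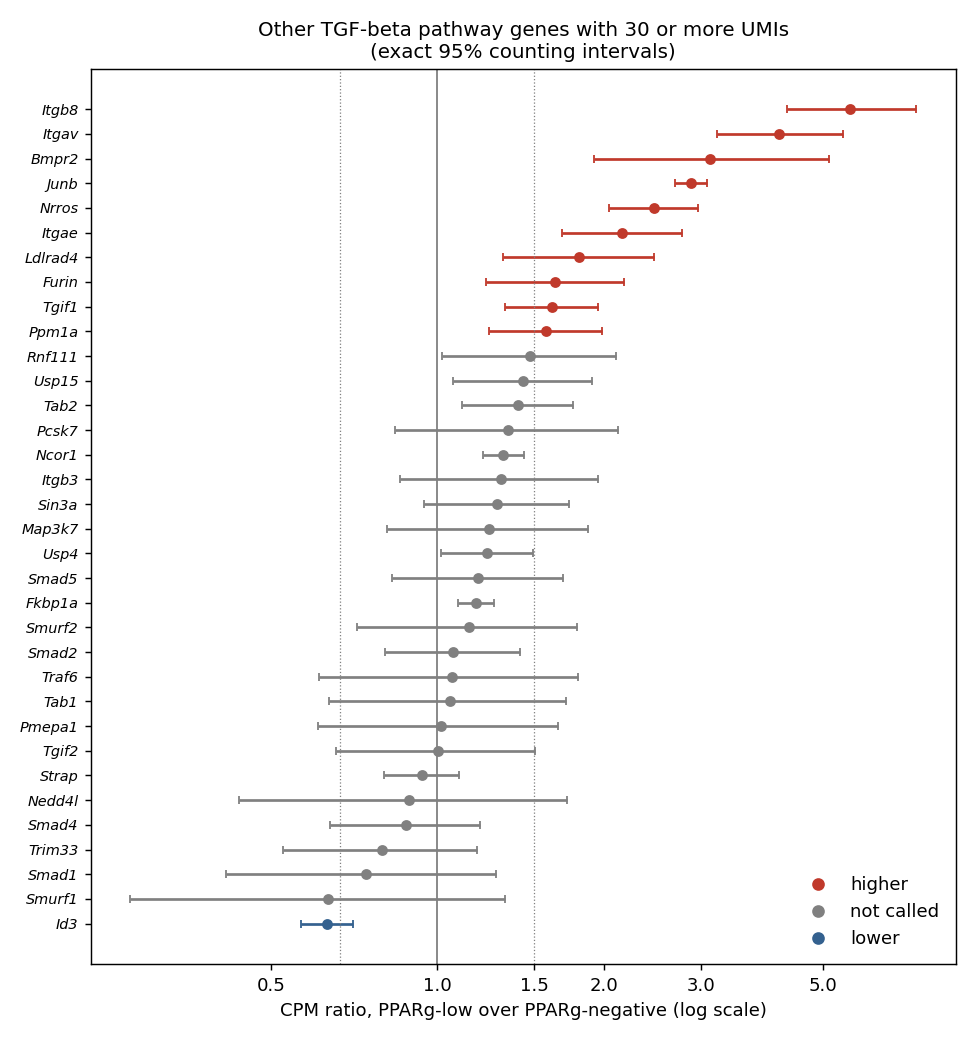
Ratio of PPARg-low over PPARg-negative (log axis) for each measured gene of the pathway list, ordered by ratio and coloured by call, with exact conditional binomial 95% intervals (counting error only). Itgb8 at 5.60 and Itgav at 4.16 lie highest, Id3 at 0.633 is the 1 gene called lower, and the intervals of the 4 SMAD genes all include 1.

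Of 9 listed genes known to respond to TGF-beta in T cells 3 were measured, and these differed in both directions. By the call rule 2 were higher, beside 24.2% of all measured genes, and 1 was lower, beside 4.47%. Itgae, the integrin chain CD103, had 135 UMIs in the PPARg-low and 127 UMIs in the PPARg-negative library, a ratio of 2.16, and the AP-1 gene Junb had 2153 PPARg-low and 1518 PPARg-negative UMIs, a ratio of 2.88. Id3, an inhibitor of E proteins, was lower, with 442 UMIs, or 152 CPM, in PPARg-low and 1419 UMIs, or 241 CPM, in PPARg-negative Tregs, a ratio of 0.633. Junb stayed higher in both kinds of cells, at 2.62 in ribosome-rich and 2.39 in ribosome-poor ones. Itgae was called in neither, at 1.70 and 0.753, and Id3 was lower in ribosome-poor cells, at 0.535, but not called in ribosome-rich ones, at 0.812. The other ligands were close to absent, with 1 PPARg-low and 0 PPARg-negative UMIs of Tgfb2 and 0 PPARg-low and 1 PPARg-negative UMIs of Tgfb3.

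Platelets are rich in Tgfb1, and other spleen cells carry several of the members, so markers of 8 other cell types were counted. Of 20 such markers, 13 were detected in the PPARg-low and 12 in the PPARg-negative library, at a summed 347 and 205 CPM, and 6 were at 0 in both, among them the platelet genes Pf4, Ppbp and Itga2b, the NK cell gene Ncr1 and the myeloid gene Itgax. Most of those UMIs came from Cst3, with 777 in the PPARg-low library and 857 in the PPARg-negative library. The summed level without Cst3, Cd79b and Cd8b1 was 16.9 CPM in the PPARg-low and 12.0 CPM in the PPARg-negative library. Leaving out every cell with a UMI of any of the 20, which removed 697 PPARg-low and 890 PPARg-negative cells, gave a ratio of 2.50 for Nrp1 and 2.35 for Smad3. It gave the 0.724 for Lrrc32 named above, which ends the lower call, and 1.61 (1.23 to 2.11) for Tgfbr1, which was then called higher. With cells removed only for markers other than Cst3, Cd79b and Cd8b1, a variant chosen after seeing the data, Lrrc32 was at 0.597 and Nrp1 at 2.46. The part of Cst3-containing cells in the Lrrc32 difference was not tested further. In these droplets, as in any sum over cells, fewer cells with a transcript and less of it per cell cannot be told apart.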

How the data were processed

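For each of the 2 libraries the authors deposited raw UMI counts by gene and barcode, with deposited gene symbols and barcodes as text of other kinds; Chromium Single Cell 3′ v2 was used, per the labels' protocols, and Cell Ranger 2.1.0 with mm10, per the submitters' processing notes. With the cell calling and annotation not given in the sources used here, filters were set on the barcodes as deposited. The files of the PPARg-low library carry the tag pos, and the label's word is used; the conflict could not be settled.

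Cells with over 10% mitochondrial UMIs or under 200 genes were dropped, 373 from the PPARg-low and 269 from the PPARg-negative library. Scrublet in scanpy 1.11.5 marked 11 and 8 doublets, which were kept, so undetected doublets are possible. UMIs were summed per library and expressed as CPM, and ratios have exact conditional binomial 95% intervals. A gene at 0 in 1 library entered its ratio at a floor of 3 counts. With 1 library per group no p-value was computed. For 3′ UMIs no division by length was made, since each stands for 1 transcript end. Clusters came from 2000 variable genes without the members, the pathway list, antigen receptor genes, ribosomal protein genes and mitochondrial genes, with 20 components, 15 neighbours and Leiden resolution 1.0 (leidenalg 0.10.2). Gene coordinates are from GENCODE M21. Calculations used scipy 1.17.1 and numpy 2.4.6 under Python 3.11.15, tables used pandas 2.3.3 and plots used matplotlib 3.10.9. The intervals were checked on simulated Poisson counts, which follow the counting model that the intervals assume. That check does not cover spread between cells or between libraries.

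The members, the pathway list and the split at a 20% ribosomal share were chosen with earlier results of these data known. Named were all members, every called gene of the pathway list with examples of the rest, and the 3 genes most like each member, among 3300 genes with 300 or more UMIs outside the ribosomal, mitochondrial, antigen receptor and predicted ones. Other settings were tried for the filters on cells and genes, the doublets, the scaling, the size of a call, the thinning and the clustering.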

Additional observations from a re-analysis of the deposited data

How the results depend on the processing

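No paired analysis was possible because each group is 1 library, and leaving out a replicate was not possible for the same reason. Of the members' ratios recomputed under other settings 84 lay within the counting interval of the reported ratio and 15 lay outside it. In ribosome-poor cells the ratios of PPARg-low over PPARg-negative were 1.13 for Tgfb1, 1.18 for Nrp1, 0.974 for Tgfbr1, 0.672 for Tgfbr2 and 0.878 for Smad7. There 0 members and 5 of 24 pathway genes were higher, beside 6.82% of all measured genes. In ribosome-rich cells Tgfb1 was at 1.31, and 0 pathway genes were lower, beside 3.92% of all measured genes. Without cells that had any marker UMI of another cell type, Lrrc32 was at 0.724, Tgfbr1 at 1.61 and Smad7 at 1.37. There 0 members were lower, beside 4.3% of all measured genes. With ribosomal and mitochondrial genes out of the CPM, Tgfb1 was at 1.19 and Nrp1 at 2.07. By that scaling 2 pathway genes were lower, beside 8.2% of all measured genes. Relative to the median of all genes Tgfb1 was at 1.17, Lrrc32 at 0.484, Nrp1 at 2.03 and Smad7 at 0.870. There 6 pathway genes were higher and 2 lower, beside 11.9% of all measured genes higher and 8.78% lower. With a call at a ratio of 2, 1 member was higher and 0 lower, and 6 pathway genes were higher and 0 lower. Of all measured genes 10.6% were higher and 2.23% lower by that rule. The count of lower pathway genes was 0 at a 5% mitochondrial limit, 2 with every cell weighing the same and 2 at a minimum of 10 UMIs. With every cell weighing the same no interval was computed, so calls in that setting, also those over all genes, rest on the size of the ratio alone. Of all measured genes 3.76% were lower at that mitochondrial limit and 6.85% with equal cell weights. No such share was taken at the minimum of 10 UMIs. With Leiden resolution 0.5, which left 3 clusters filled by both libraries, Nrp1 was above 1 in 3 and called higher in 2. Lrrc32 was then at 1.60 (0.954 to 2.53) in cluster 0, on the other side of 1, and lower in cluster 2, at 0.571; Smad7 was called higher in cluster 0, at 2.0 (1.13 to 3.30), and Tgfbr1 lower in cluster 1, at 0.634 (0.429 to 0.959). Of the shares of cells, 51 lay outside the interval of the reported value under other settings and 39 within it. At 1000 UMIs Smad3 was found in 2.33% of PPARg-low and 0.987% of PPARg-negative cells. For Lrrc32 the intervals met in ribosome-rich cells and not in ribosome-poor ones at 500 UMIs, the reverse of 750 UMIs. Depth limits Smad3, the member with the fewest UMIs, at 66 PPARg-low and 71 PPARg-negative UMIs.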
